A study of Mus musculus with 6 samples.

Results

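The miRNA content of the non-fibrotic liver was described in 3 male C57BL/6 mice that received corn oil, the vehicle of carbon tetrachloride (CCl4), and no CCl4. They were the controls of a liver fibrosis series of 6 arrays, and the other 3 arrays enter no value given here. From the age of 7 weeks the mice were injected into the peritoneal cavity, 2 times weekly over 10 weeks, and their livers were collected 48 h after the final injection. A corn oil mouse is therefore an animal that was injected repeatedly and not an untreated one, and the RNA is that of whole liver tissue, with all its cell types. RNA of each mouse was labeled with Cy3 and hybridized to 1 array. A miRNA was a member of the described set when the scanner software flagged it as detected on all 3 arrays, which held for 174 of the 1247 mouse miRNAs on the array (14.0%). Of the others, 33 were detected on 1 or 2 arrays and 1040 on none. The software detected between 186 and 193 miRNAs per array, and the summed signal of the 174 members was between 167800 and 177080 in intensity units. No spot was flagged as saturated.

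A miRNA is cut from a hairpin precursor as a duplex of its 5p and 3p arms, and usually 1 arm is retained in an Argonaute protein while the other is degraded. The retained arm pairs with target mRNAs mainly through its seed, bases 2 to 8 from the 5′ end, so miRNAs with the same seed form a family. In liver, miR-122-5p is the characteristic miRNA of hepatocytes, and it is known for its role in lipid metabolism and in hepatitis C virus replication.

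A miRNA has 40 spots on the array, which carry 1 to 4 different probes, and its signal is the software's total over all or some of these probes. Probes differ in how brightly they report the same RNA. Among the 82 members whose spots were all well above background on the 3 arrays, the brightest probe exceeded the dimmest probe of the same miRNA by a median of 2.28-fold and by 22.4-fold at most. An order of miRNAs is therefore an order of signal and not of molecule number. The share of a miRNA is its percentage of the summed signal of the members on the same array.

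The mature sequences that carry most of the signal or define the main families are given 5′ to 3′, with the seed in capitals, from RefSeq (GRCm38.p6), whose table held 141 of the 174 members. The first group is drawn from the miRNAs of highest signal outside any shared seed family, of which miR-122-5p, at rank 3, is named only.
miR-6366: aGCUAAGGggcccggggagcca
miR-3963: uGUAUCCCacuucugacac
miR-5100: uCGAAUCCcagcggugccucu
miR-3968: cGAAUCCCacuccagacacca
miR-21a-5p: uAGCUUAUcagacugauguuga
miR-22-3p: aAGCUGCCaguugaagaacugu
miR-192-5p: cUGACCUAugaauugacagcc
The second group holds the let-7 family, in which all 9 members have the same seed and differ only outside it.
let-7a-5p: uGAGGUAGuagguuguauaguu
let-7f-5p: uGAGGUAGuagauuguauaguu
let-7c-5p: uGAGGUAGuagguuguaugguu
let-7b-5p: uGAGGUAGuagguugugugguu
let-7g-5p: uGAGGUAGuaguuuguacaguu
let-7d-5p: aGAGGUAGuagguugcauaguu
let-7i-5p: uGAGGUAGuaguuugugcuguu
let-7e-5p: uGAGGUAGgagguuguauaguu
miR-98-5p: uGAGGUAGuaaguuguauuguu
The third group holds the miR-29, miR-30 and miR-148 families, as far as the table had them, since closely similar sequences in them gave clearly different signals.
miR-29a-3p: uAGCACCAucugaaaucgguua
miR-29c-3p: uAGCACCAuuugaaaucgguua
miR-29b-3p: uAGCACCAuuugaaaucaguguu
miR-30a-5p: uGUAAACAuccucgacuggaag
miR-30c-5p: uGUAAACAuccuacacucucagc
miR-30e-5p: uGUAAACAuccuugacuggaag
miR-148a-3p: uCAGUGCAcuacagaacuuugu
miR-152-3p: uCAGUGCAugacagaacuugg
miR-148b-3p: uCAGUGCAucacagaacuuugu

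The liver profile was dominated by few miRNAs. miR-6366 gave total signals of 84784, 83302 and 80969 on corn oil replicates 1, 2 and 3, a share of 48.4% ± 0.63 (SD, n = 3). miR-3963 gave 35100, 32102 and 29873, a share of 18.9% ± 1.01. miR-122-5p, the hepatocyte miRNA, was at 17855, 16613 and 18345 and took 10.3% ± 0.59. These 3 miRNAs held ranks 1 to 3 on every array, and their ranges did not overlap. Together they made up 77.5% ± 0.47 of the signal, the 10 highest made up 88.9% ± 0.59 and the 25 highest 95.1% ± 0.25. Of the 174 members, the 2 highest were needed to reach 50% of the signal, 12 to reach 90% and 73 to reach 99%. The median member had a signal of 32.5 and a share of 0.0190%, and the highest member was at least 7767-fold above the lowest one, miR-193a-5p, whose own signal lay under the range of miRNAs well above background. Signals were above 1000 for 13 members, and the 36 members below 10 held 0.138% of the total between them.

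**Figure D1:**
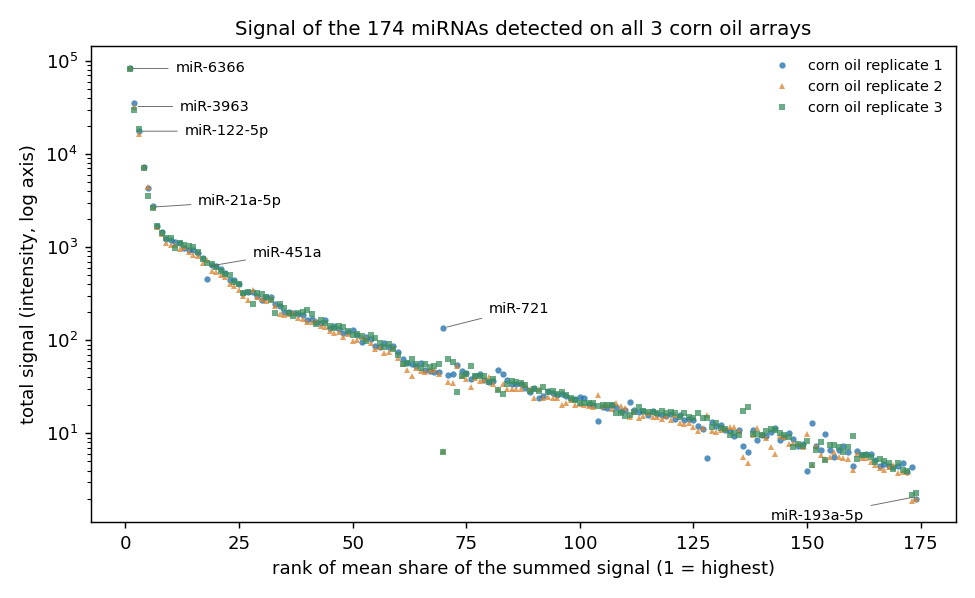
Total signal (log axis) of each of the 174 members against its rank of mean share, with 1 point for each of the 3 arrays. The points of the arrays nearly coincide over the upper ranks, the curve drops from 83019 (mean of miR-6366) to 2.10 (mean of miR-193a-5p), and miR-721 has 1 array far above the other two.

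The miRNAs after the leading 3 kept their order down to rank 10. miR-5100 (7279, 7347 and 7123) and miR-3968 (4353, 4383 and 3520) came next. miR-21a-5p, a miRNA widely studied in cell growth and fibrosis, gave 2735, 2721 and 2630, a share of 1.57% ± 0.03. miR-22-3p gave 1677, 1657 and 1686, and miR-192-5p, which is abundant in liver, intestine and kidney, gave 1473, 1370 and 1422. The lowest array of each of the 8 highest miRNAs was above the highest array of the next one in the order. From miR-29a-3p (1210, 1110 and 1269) and let-7a-5p (1193, 1049 and 1245) downward, the ranges of neighbours mostly overlapped. This held for 15 of the 24 neighbouring pairs among the 25 highest miRNAs. Within arrays the order was firmer, since 9 of these 15 pairs, miR-29a-3p over let-7a-5p among them, had the same order on each of the 3 arrays and 6 did not. The set of the 10 highest and that of the 25 highest were the same on all arrays, and 12 of the 25 had the same rank on all of them.

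The remaining miRNAs among the 25 highest had mean signals from 383 (let-7d-5p) to 1058 (miR-5097). They were miR-5097, let-7f-5p, miR-5109, miR-6243, let-7c-5p, let-7b-5p, let-7g-5p, miR-451a, miR-126-3p, miR-194-5p, miR-29c-3p, miR-30a-5p, miR-26a-5p, miR-148a-3p and let-7d-5p. miR-451a, a miRNA of the red cell lineage, was the one of the 25 with an SD above 0.25 on the scaled log2 scale, since it was at 452, 728 and 680. Its rank was 22 on replicate 1, 17 on replicate 2 and 18 on replicate 3. Without miR-6366, miR-3963 and miR-122-5p in the sum, miR-5100 took 18.8% ± 0.62, miR-3968 10.6% ± 1.33, miR-21a-5p 7.001% ± 0.218 and miR-22-3p 4.35% ± 0.07 of what was left.

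**Figure D2:**
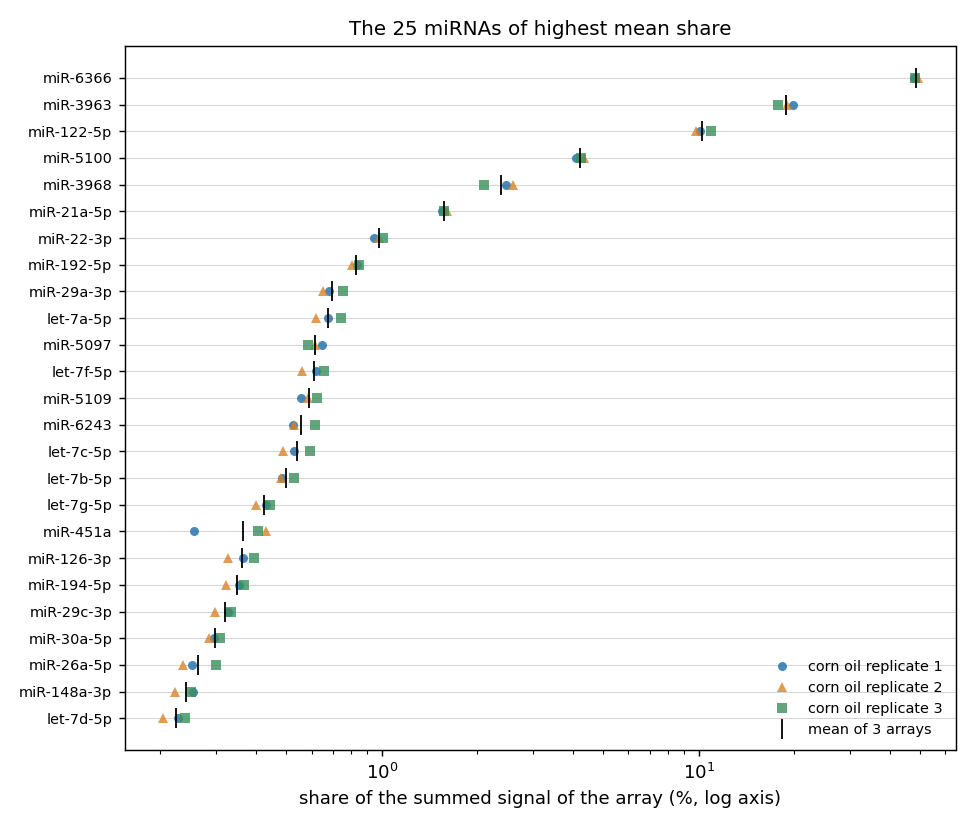
Share of the summed signal (%, log axis) of the 25 highest miRNAs, with 1 point for each corn oil array and a bar at the mean of the 3 arrays. miR-6366 lies near 48.4% and let-7d-5p near 0.223%, and miR-451a shows the widest separation, with replicate 1 below the other two.

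Much of the signal lay in miRNAs with high registry numbers, which were named late. This grouping was chosen after the values were seen. The 32 members numbered 2000 or higher held 76.4% ± 1.31 of the signal. They included 4 of the 5 highest and 7 of the 25 highest miRNAs. Those 4 held most of this share, with miR-6366 at 48.4%, miR-3963 at 18.9%, miR-5100 at 4.23% and miR-3968 at 2.38%. miRNAs numbered 2000 or higher were not detected more often, since 9.79% of the 327 on the array were members, compared with 15.4% of the other 920. miR-3963, miR-5100 and miR-3968 share the bases AUCCCA, a string that 7 of the 1679 mature miRNAs of the table contain (0.417%). None of the other members with a sequence in the table contains it. How far their probes hybridize to RNAs other than the named miRNA was not tested. miR-3968 had the largest difference between probes of 1 miRNA, 22.4-fold, miR-5100 had 7.62-fold and miR-6366 1.88-fold.

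The label of the tissue was checked against lists of miRNAs known for their cell types. All 6 hepatocyte miRNAs were members, compared with 14.0% of all miRNAs on the array. They took 11.7% ± 0.64 of the signal, and miR-122-5p alone took 10.3%. Those other than miR-122-5p took 6.52% of the sum without the 3 highest miRNAs. Besides miR-122-5p and miR-192-5p, miR-194-5p was at 629, 547 and 618, and miR-148a-3p at 447, 378 and 418. miR-101a-3p (74.6, 64.3 and 69.6) and miR-455-3p (8.45, 9.30 and 10.1) were much lower, so the list spanned from rank 3 to rank 144. For comparison, 83.4% of all miRNAs on the array were undetected on each of the 3 arrays. All 5 miRNAs of the muscle list were undetected, as were the 6 listed miRNAs of the imprinted Dlk1-Dio3 locus. Of other miRNAs encoded there, miR-494-3p (202, 192 and 197) and miR-487b-3p (6.53, 6.02 and 5.34), noted after their values were seen, were members. For miR-487b-3p at most 42.5% of spots were well above background on any array. The activity of the locus was not tested. Of the brain list, 5 of 6 were undetected, and miR-219-5p was at 10.9, 10.7 and 9.55. Of the pancreas and endocrine list, 4 of 5 were undetected, and miR-7a-5p was at 10.9, 9.65 and 9.75. The counts of these last lists were near the share of all miRNAs.

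Other cell types of the liver were represented at lower signal. In whole tissue, fewer cells of a type and less RNA per cell cannot be told apart. The endothelial miR-126-3p was at 646, 553 and 665, and its partner arm miR-126-5p at 12.0, 10.4 and 12.8. Of the leukocyte list, 4 of 8 miRNAs were members, compared with 14.0% of all miRNAs on the array. These 4 had a summed share of 0.0651% ± 0.0056. These were the pan-leukocyte miR-142-3p (36.8, 33.7 and 38.0), the myeloid miR-223-3p (34.2, 30.1 and 35.8), miR-342-3p (26.9, 23.8 and 28.6) and miR-146a-5p (16.3, 13.9 and 16.9). The 3 undetected ones were the lymphocyte miRNA miR-150-5p, the activation-related miR-155-5p and miR-146b-5p, while miR-142-5p was detected on replicate 1 alone (3.71). All 4 leukocyte members had their lowest unscaled signal on replicate 2, as did 116 of all 174 members (66.7%), and the spread of the list (median SD 0.074 on the scaled log2 scale) was below that of all members (0.098).

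The mesenchymal and stellate list had 4 members among the 5 miRNAs on the array, where 14.0% of all miRNAs were members. miR-199a-3p was at 43.6, 35.2 and 58.4, miR-199a-5p at 12.0, 10.5 and 16.6, miR-199b-5p at 10.4, 7.11 and 11.3, and miR-143-3p at 15.9, 14.4 and 17.5. After each array was scaled to its 75th percentile, all 4 were highest on replicate 3, where 83 of all 174 members were highest. The 4 leukocyte members and the 2 endothelial ones were highest there as well. miR-214-3p, which is transcribed with miR-199a, was detected on replicate 3 alone (5.21). The median deviation of these 4 from their own mean was 0.29 on replicate 3 and -0.22 on replicate 2 (log2), compared with 0.03 and -0.01 over all members. miR-195a-5p (42.5, 35.9 and 63.6) and miR-497-5p (38.5, 31.5 and 53.4), which are made from a common transcript, showed the same order of arrays.

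The largest spread among the miRNAs of all lists was that of the epithelial miR-200a-3p and miR-200b-3p, which maintain epithelial identity. miR-200a-3p gave 6.32, 4.76 and 19.3 and miR-200b-3p gave 7.31, 5.64 and 17.6, so that replicate 3 was the highest array for both. On replicates 1 and 2 these signals lay under 10.4, the lowest signal of any member with over 50% of its spots well above background there. Against that floor replicate 3 was at least 1.85-fold higher for miR-200a-3p and at least 1.69-fold higher for miR-200b-3p. miR-429-3p, encoded beside them, was detected on replicate 3 alone (12.0). miR-31-5p (41.4, 39.7 and 41.8) and miR-203-3p (25.2, 21.0 and 26.02), which also mark epithelia, had their highest unscaled signal on replicate 3 too, but by little. After scaling, miR-31-5p was highest on replicate 2 and miR-203-3p on replicate 3. Their highest array was then 1.07-fold and 1.14-fold above their lowest. miR-200c-3p and miR-141-3p were undetected on all arrays. Both probes of each of miR-200a-3p, miR-200b-3p and miR-429-3p were brightest on replicate 3. For the better probe of miR-200b-3p the spot mean was 26.2, 19.9 and 62.1. The part that sampling of bile ducts had in these values was not tested.

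The erythroid pair moved in another direction. miR-144-3p gave 13.7, 25.8 and 19.9, and miR-451a, from the neighbouring hairpin, gave the values above. Both were lowest on replicate 1 and highest on replicate 2, with median deviations of -0.52, 0.44 and 0.08 on the 3 arrays. miR-144-5p was undetected. The blood content of the samples was not measured, and its part in these values was not tested.

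Seeds could be assigned to 145 members, for 4 of them by name. These had 110 different seeds, of which 17 were shared by 2 or more members (52 members) and 93 belonged to 1 member. The 8 families of highest signal held 6.43% of the total. The let-7 family (seed GAGGUAG), known for restraining proliferation and held at high levels in adult tissue, was the largest, with 9 members and summed signals of 5478, 4864 and 5619. Its share was 3.10% ± 0.24, and 13.8% ± 0.81 of the sum without the 3 highest miRNAs. No member dominated it, since let-7a-5p held 21.9% of the family signal, but let-7a-5p exceeded miR-98-5p 68.9-fold.

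Members of this family differ from each other by 1 to 6 bases in the 36 possible pairs. Positions are counted from the 5′ end, with the base of the first miRNA written first. let-7a-5p and let-7f-5p differ by G12A and had mean signals of 1163 and 1048. let-7a-5p and let-7c-5p differ by A19G and had 1163 and 922. let-7a-5p and let-7e-5p differ by U9G, the base next to the seed, and had 1163 and 53.3, a 22.1-fold gap that was present on all 3 arrays. A single base thus went with signals that were near each other in some pairs and far apart in another, and how far each probe detects its close relatives was not tested. All 9 members had their lowest unscaled signal on replicate 2, where 66.7% of all members were lowest. After scaling, let-7g-5p varied least of all members above the median signal (SD 0.0066, log2).

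The miR-29 family, whose targets include collagen mRNAs, held 1.20% ± 0.08 of the signal. miR-29a-3p led, miR-29c-3p was at 579, 506 and 561, and miR-29b-3p at 319, 301 and 321. miR-29a-3p and miR-29c-3p differ by C10U alone and differed 2.18-fold in signal. The miR-30 family held 0.640% ± 0.034 in 5 members. In it miR-30a-5p (522, 484 and 518) exceeded miR-30e-5p (124, 118 and 125), from which it differs by C13U, and the family spanned 10.2-fold down to miR-30d-5p. miR-30a-5p, miR-29c-3p, miR-194-5p and miR-101a-3p followed let-7g-5p as the members above the median signal with the smallest spread, each with an SD of at most 0.033.

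The other families varied more in how the signal was divided. The miR-15/16 family (0.443% ± 0.044), which acts on cell cycle mRNAs, was led by miR-15a-5p (297, 294 and 325) and miR-16-5p (271, 277 and 311) in nearly equal amounts. The miR-26 family (0.391% ± 0.049) consisted of miR-26a-5p (444, 400 and 503) and miR-26b-5p (232, 190 and 243). In the miR-148/152 family (0.266% ± 0.018) miR-148a-3p held 90.9% of the family signal. It was at least 38.7-fold above the dim miR-148b-3p (7.70, 7.19 and 7.39), from which it differs by C9U and U10C. miR-23b-3p and miR-23a-3p (0.172% ± 0.022 together) were within 1.396-fold of each other. The pair miR-130a-3p and miR-721 (0.209% ± 0.050) had summed signals of 466, 280 and 335, in which miR-721 made up 136 on replicate 1 and 6.49 and 6.26 on the others.

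**Figure D3:**
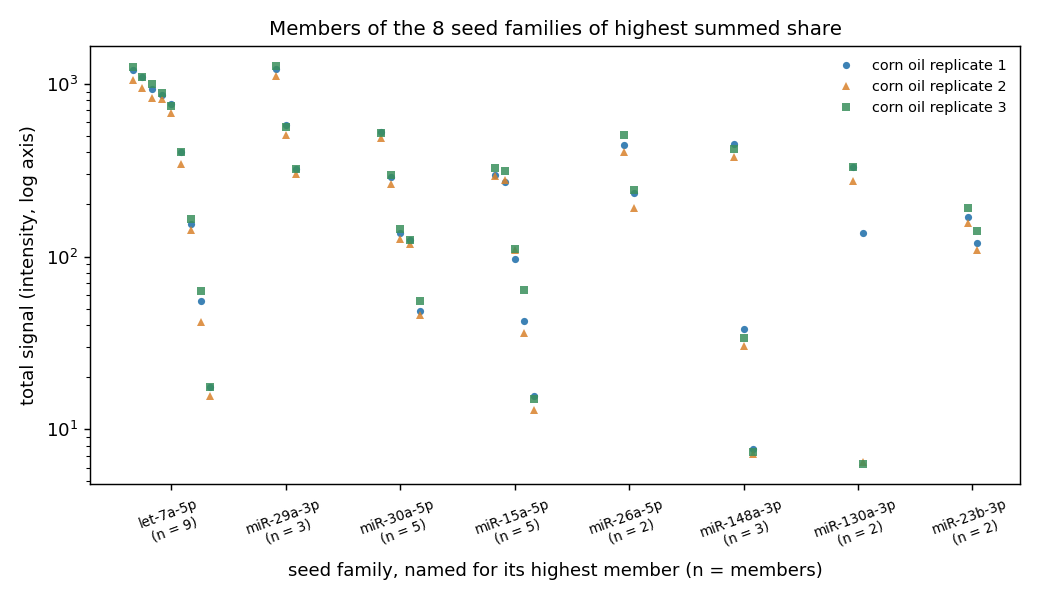
Total signal (log axis) of each member of the 8 seed families of highest share, from the let-7 family at the left to the miR-23 family, with 1 point for each array and the members of a family ordered by mean signal. The let-7 members descend over 68.9-fold, whereas miR-148a-3p stands alone above its relatives and the arrays of miR-721 are split.

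For 17 hairpins both arms were members, and the ratio of their signals could be formed within each array. The same arm was higher on all 3 arrays in each of the 17. The 5p arm was higher by over 2-fold on all arrays in 8 hairpins, and the 3p arm in 7, also where only a lower bound can be given. The arms of miR-140 were within 2-fold, and for miR-455 both arms were too dim to tell. With 3 arrays a two-sided exact sign test cannot go below p = 0.25, so no test was made. The SD of the log2 ratio between arrays had a median of 0.086 and reached 0.24 at most, compared with a median of 0.13 for the unscaled log2 signal of single members.

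Both arms had over 50% of their spots well above background in 4 hairpins, and these are the firmest ratios. In miR-122 the 5p arm was above the 3p arm (44.6, 38.3 and 44.0) with a log2 ratio of 8.70 ± 0.06, or 417-fold. In miR-22 the 3p arm was above the 5p arm (20.6, 19.8 and 21.1) with a log2 ratio of 5p over 3p of -6.35 ± 0.03, or 81.7-fold. The miR-30a ratio was 3.98 ± 0.10 toward the 5p arm, with miR-30a-3p at 31.0, 32.8 and 32.9. In miR-140 the arms were close, with the 5p arm at 20.2, 18.2 and 20.4, the 3p arm at 23.7, 22.9 and 24.3, and a ratio of -0.27 ± 0.05. Their order (miR-122, miR-30a, miR-140, miR-22) was separated by far more than the spread between arrays. The hairpins of miR-30a, with the higher arm at the 5′ side, and miR-22, with the higher arm at the 3′ side, illustrate both outcomes, with the mature arms in capitals.
Mir30a: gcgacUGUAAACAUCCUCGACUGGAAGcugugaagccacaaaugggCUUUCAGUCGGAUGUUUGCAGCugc
Mir22: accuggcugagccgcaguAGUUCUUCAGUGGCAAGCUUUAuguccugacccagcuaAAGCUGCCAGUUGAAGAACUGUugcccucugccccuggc

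In the other hairpins the lower arm was dim, and the fold is a lower bound where no more than 50% of the dim arm's spots passed the background flag on any array and the arm lay under the lowest signal of a miRNA above that limit (10.4 to 11.3 by array). The higher arm was then set against that floor. miR-21a-5p was at least 252-fold above miR-21a-3p (7.42, 5.47 and 6.29), miR-192-5p at least 133-fold above miR-192-3p (8.63, 7.84 and 7.13) and miR-30c-5p at least 26.3-fold above miR-30c-2-3p. For miR-30e-5p over miR-30e-3p the floor gave 11.4-fold, but this did not hold as a lower bound. The total of miR-30e-3p held 1 of its 2 probes. Over all spots the ratio was below that value, at 3.33 (log2), compared with 3.73 for the totals. On the 3p side, miR-29c-3p was at least 51.2-fold above miR-29c-5p (3.81, 3.86 and 3.96), miR-193a-3p at least 18.0-fold above miR-193a-5p, and miR-1839-3p at least 3.07-fold above miR-1839-5p. The 5p arm of miR-31 was at least 3.83-fold higher, and for miR-455 no fold is given because both arms lay under the floor.

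Hairpins whose lower arm was at or above the floor had log2 ratios of 5p over 3p of 3.19 ± 0.24 (miR-652), -1.81 ± 0.06 (miR-199a), -2.30 ± 0.08 (miR-378a) and -5.73 ± 0.03 (miR-126). For miR-652, miR-199a and miR-126 the total of the lower arm held 1 of its 2 probes. Over all spots these ratios were 3.00, -1.62 and -5.39. miR-199a-3p and miR-199a-5p both rose and fell with the array as given above, so their ratio varied less than either arm. A further 91 members had the other arm on the array without it being a member. The member was the 5p arm in 49 of these and the 3p arm in 42. In 88 the other arm was detected on no array and in 3 on 1 or 2 arrays. These other arms were non-members by selection. Of all non-members on the array, 1040 were detected on no array and 33 on 1 or 2, a similar proportion. Examples of the 88 are miR-29a-3p, let-7g-5p and miR-148a-3p, whose partner arms were not detected on any array. Arms named without 5p or 3p (33 members, miR-6366, miR-3963, miR-5100 and miR-3968 among them) could not be compared.

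**Figure D4:**
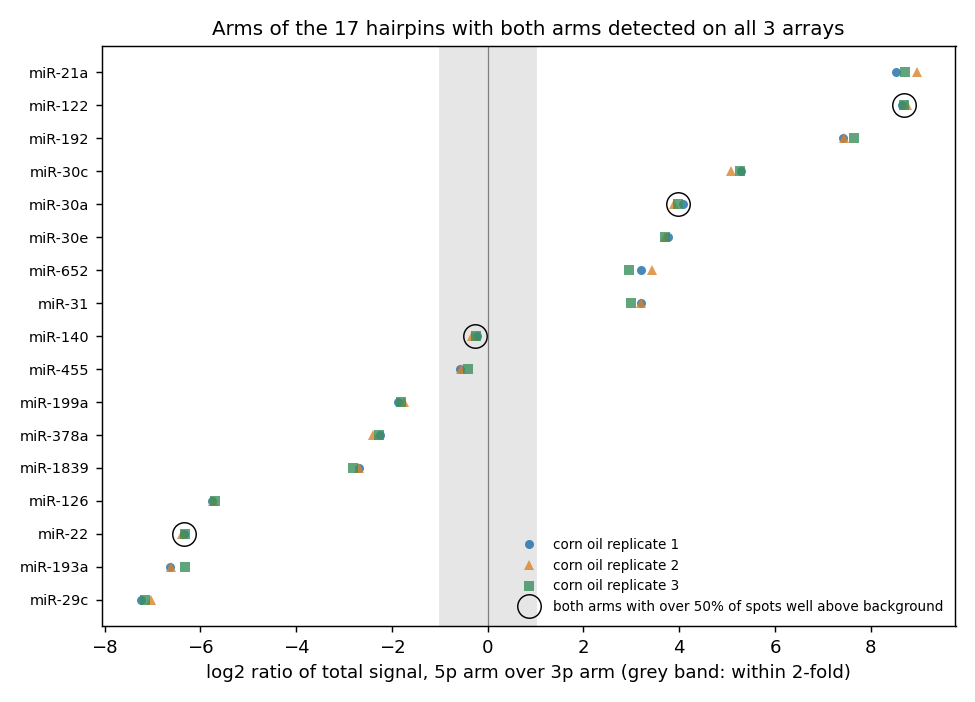
Log2 ratio of total signal of the 5p arm over the 3p arm for the 17 hairpins with both arms detected on all 3 arrays, with 1 point for each array and a grey band within 2-fold. Measured ratios run from 8.73 (miR-21a) to -7.14 (miR-29c), but at both ends the lower arm was dim and the fold is only bounded, at 252 and 51.2. The circled hairpins had both arms with over 50% of their spots well above background.

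The 3 livers gave similar profiles. Spearman correlations of the 174 signals between arrays, across miRNAs that share array and labeling, were 0.976, 0.970 and 0.986, and no pair of arrays had an identical value. After scaling, between 4 and 7 members differed by over 2-fold between a pair of arrays. The SD of the scaled log2 signal had a median of 0.098, which is 1.07-fold. When the members were divided by signal into 3 sets of 58, it was 0.129 in the set of lowest signal, 0.093 in the middle set and 0.086 in the set of highest signal. The SD exceeded 0.5 in 10 members, none of them in the last set. miR-122-5p had an SD of 0.041, while miR-6366 had 0.087 and miR-3963 had 0.122.

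Among members above the median signal, the SD was largest for miR-721, which gave 136, 6.49 and 6.26 and was above the median only through replicate 1. There it was at least 12.0-fold above the other arrays, where it lay under the floor. All 4 of its probes were high on replicate 1, with spot means of 225 to 256 there and 11.8 to 16.4 on the other arrays, so no single probe or spot made the difference. miR-130a-3p, which shares its seed, gave 330, 273 and 328 and did not differ in this way. miR-3102-5p followed with 54.5, 52.4 and 27.7 (SD 0.57), then miR-451a (0.44), miR-195a-5p (0.39) and miR-211-3p (44.0, 33.9 and 26.3, SD 0.36).

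The number of probes in the total differed between arrays for some dim miRNAs. The total of each member equalled the sum over a subset of its probes to within 0.000712%. All probes were summed on all arrays in 127 members and the same number, but not all, in 38. In the other 9 members 1 array or more counted more probes than another, and 7 of these were among the 10 with an SD over 0.5. Over all spots, whether counted by the software or not, the median SD of these 9 was 0.195 in place of 0.757, and 5 members were left with an SD over 0.5. Those were miR-721, miR-200b-3p, miR-200a-3p, miR-3102-5p and miR-144-3p. With all probes counted, the SD was 0.84 for miR-200a-3p, where the totals gave 1.03, and 0.85 for miR-200b-3p. For miR-802-5p, a miRNA of hepatocytes and pancreas chosen after its values were seen, the totals were 12.98, 4.63 and 4.53, with 2 probes counted on replicate 1 and 1 on the others, and the SD went from 0.81 to 0.50 over all spots. Its spots were mostly not well above background on replicates 2 and 3.

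**Figure D5:**
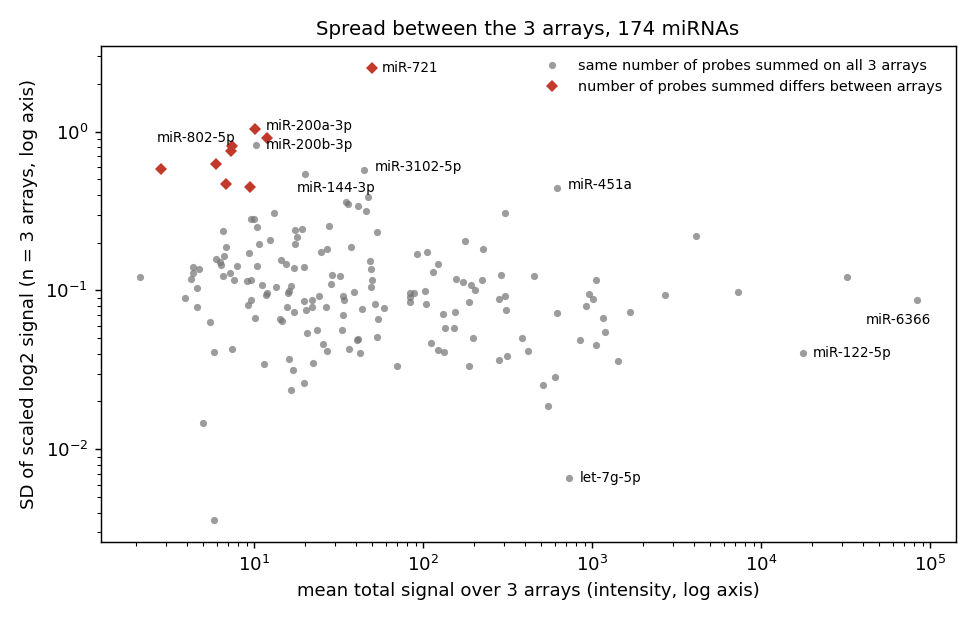
SD of the scaled log2 signal between the 3 arrays against the mean total signal (both log axes), with 1 point for each of the 174 members. Red diamonds mark the 9 members in which the software summed a different number of probes on different arrays, and most of the points above 0.5 are such members.

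Members encoded near each other had near signals in some clusters and very unequal ones in others. The RefSeq table held 134 hairpins that give rise to members, 69 of them within the span of a protein-coding gene, and 18 clusters held 2 or more of these hairpins with gaps of at most 10 kb. The 3 hairpins within Mcm7, a replication licensing gene, were the most even cluster of 3, with miR-25-3p at 45.9, 48.2 and 52.7, miR-106b-5p at 47.4, 48.3 and 52.1, and miR-93-5p at 37.7, 37.0 and 41.8. let-7c-5p and let-7b-5p, from neighbouring hairpins, were within 1.08-fold on average, and miR-200a-3p and miR-200b-3p, both dim, within 1.01-fold. In contrast, let-7f-5p exceeded miR-98-5p 62.2-fold, although Mirlet7f-2 and Mir98 lie together within Huwe1, and let-7f-5p is also made from a second hairpin. miR-451a exceeded miR-144-3p 31.3-fold. The array order was nevertheless common to miR-144-3p and miR-451a, and to miR-200a-3p and miR-200b-3p, as described above.

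Base composition was compared descriptively between members and the other miRNAs on the array. A uridine was the first base in 50.4% of the 141 members with a sequence, in 70.0% of the 20 such miRNAs among the 25 highest and in 34.2% of the 876 that were not members. The median GC content was 47.6% in members and 50% in the others. These are descriptions of detected signal, in which probe design takes part to an extent that was not tested. GC content also went with the array. The 26 members over 60% GC had median deviations of -0.06, 0.12 and -0.07 (log2) on replicates 1, 2 and 3, and their median SD was 0.178. For members under 40% GC (23) it was 0.067. Across the 141 members the Spearman correlation of GC content with the deviation of replicate 2 from the other arrays was 0.328. Thus replicate 2 had relatively more signal in GC-rich miRNAs.

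At the detection limit, the members of lowest signal were miR-193a-5p (2.00, 2.00 and 2.29), miR-188-5p (4.36, 1.90 and 2.17), miR-29c-5p, miR-467f and miR-3082-5p. The highest signals outside the set were those of miR-3099-3p (21.7) and miR-760-3p (17.6) on replicate 1, miR-429-3p (12.0) on replicate 3, miR-1897-5p (10.1 on replicate 1 and 3.90 on replicate 3) and miR-320-3p (9.37 on replicate 1 and 4.44 on replicate 2). Signals inside and outside the set overlapped, since membership required a flag on every array. Of the members, 116 had over 50% of their spots well above background on each array and 44 had at most 50% on each.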

How the data were processed

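Total liver RNA of 3 corn oil-treated mice was measured on 1-color Agilent mouse miRNA arrays. The authors extracted and deposited the scanner output with Feature Extraction 11.0.1.1, and its values are intensities on a linear scale, with background subtracted and without normalization between arrays. The software sets the total signal of an undetected miRNA to 0.1. Control spots were left out, 1 total signal per miRNA was taken, and miRNAs flagged as detected on all 3 arrays were kept. Groups came from the labels. Shares were formed on each array, and the SD between arrays on log2 signals minus the 75th percentile of the members. With 1 group no test was made. The scripts were tested on simulated data. The miRNAs and lists described were chosen with earlier results of these data known. The text names the 25 highest members, the 8 highest families, list members, arm pairs, members of extreme spread and members at the detection limit, and all others were chosen after their values were seen. Alternatives were other signals per miRNA (all spots, the brightest probe, normexp with limma 3.58.1 in R 4.3.3 and an offset of 50, on spot medians where spot means had been planned), other detection rules, other scalings and each array left out. Tables were made in Python 3.11.15 with pandas 2.3.3 and numpy 2.4.6, correlations with scipy 1.17.1 and plots with matplotlib 3.10.9. Coordinates are left out, since the RefSeq tables are of GRCm38.p6 and the array design of another build. The number of arrays limits the precision. The CCl4 arrays and the deposited normalized table were not used here.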

Additional observations from a re-analysis of the deposited data

How the results depend on the processing

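The 3 highest miRNAs were miR-6366, miR-3963 and miR-122-5p under each alternative signal, and 9 or 10 of the 10 highest and 24 or 25 of the 25 highest were shared. The same arm was higher in all 17 hairpins under each of these signals, and no arm ratio changed sign under any alternative. With normexp and an offset of 50, the 3 highest miRNAs took 74.6%, the 10 highest took 85.6%, 19 miRNAs made up 90% of the signal, the 3p arm was higher by over 2-fold in 4 hairpins and the median SD was 0.060. The offset adds the same amount to every spot, which lowers ratios and shares of bright over dim miRNAs. With the single brightest probe, the 3 highest took 75.01% and the let-7 family 3.35%. Without the 3 highest miRNAs in the sum, the let-7 family took 13.8%. Where over 50% of the spots had to be well above background, 116 miRNAs were left, with a median SD of 0.085. Both arms were left in 4 hairpins, of which 2 had the 5p arm and 1 the 3p arm higher by over 2-fold. Without scaling the median SD was 0.128, and with centring on the median 0.142. With 1 array left out, the number of miRNAs detected ranged from 175 to 180, the share of the 3 highest from 77.4% to 77.8%, that of the 10 highest from 88.6% to 89.2%, that of miR-122-5p from 9.94% to 10.5%, that of the let-7 family from 2.98% to 3.22%, the number making up 90% from 12 to 13, and the median SD from 0.069 (without replicate 3) to 0.092, while 8 and 7 hairpins had the 5p and the 3p arm higher by over 2-fold each time. Summing all spots or quantile normalization moved none of these values by more than the spread between arrays. Of all 68 values recomputed, single miRNAs, families, lists and arm ratios included, 10 moved by more than that spread over all spots, 37 with normexp, 36 with the brightest probe and 5 of 68 with quantile normalization. With the probes that the software left out of a dim arm counted as well, the ratio came nearer to 0, from -7.14 to -6.51 for miR-29c, from 3.13 to 2.49 for miR-31 and from -2.73 to -2.27 for miR-1839 (log2). It also did so for miR-126, from -5.73 to -5.39, and for miR-199a, from -1.81 to -1.62. No paired analysis was possible because 1 group is described and no groups are compared.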
